A study of Mus musculus with 6 samples.

Results

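The enzymes and helper proteins that process collagen and cross-link it were examined in the RPE-choroid of mice with laser-induced subretinal fibrosis (SRF). That tissue joins the retinal pigment epithelium (RPE) to the vascular choroid beneath it. The group was set by gene name and role, by a rule that uses no measured value but with earlier results of these data known, and holds 10 genes: the lysyl oxidases Lox, Loxl1, Loxl2 and Loxl3, the lysyl hydroxylases Plod1 and Plod2, the prolyl 4-hydroxylase subunits P4ha1 and P4ha2, the chaperone Serpinh1 and the enhancer Pcolce. All 10 were among the 15663 genes listed for every library, and all 10 were among the 13454 genes tested, those whose count exceeded 50 in 2 or more libraries. RNA-seq was done on 3 control mice and 3 SRF mice, 1 library per mouse. Both groups were male C57BL/6 mice, given as C57BL/6J in the study, aged 8 to 10 weeks when supplied. The methods of the study do not give their age when RNA was prepared. Control mice were untreated. In SRF mice each eye was given 4 laser burns, every lesion was burned again after 10 days, and RNA was prepared a further 20 days on. No dissection of lesions is described, so the share of each library that came from fibrotic tissue is unknown.

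Fibrillar collagen is made as procollagen chains in the endoplasmic reticulum. There prolyl 4-hydroxylases stabilise the triple helix, lysyl hydroxylases prepare lysines for cross-linking and sugar addition, and the chaperone encoded by Serpinh1, HSP47, holds the folded helix. After secretion the C-propeptide is cut off, a step that the product of Pcolce accelerates. Lysyl oxidases then oxidise lysines of collagen and elastin outside the cell, which leads to the covalent cross-links that make a scar stiff and hard to degrade. In the eye, Loxl1 is best known for elastic fibre maintenance, including the elastic layer of Bruch's membrane, on which the RPE rests.

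The libraries held between 13667310 and 24356023 counts. Photoreceptor RNA differed greatly between them and not by group: the summed level of 12 photoreceptor markers was 12830 CPM (counts scaled to library size with TMM normalization) in control mouse 1 and 12370 CPM in SRF mouse 3, and between 709 and 1752 CPM in the other 4 libraries. RPE markers, all 10 of which were tested, summed to between 42960 and 49650 CPM in control mice and between 29590 and 37380 CPM in SRF mice, so the labelled tissue was present in each library. Rgr was the largest part of that sum in each library. Singly, 8 RPE markers had a log2 fold change below 0 and 2, Pmel and Best1, above 0. Of these markers 5 were lower without overlap, as were 6.43% of all tested genes. Macrophage markers summed to between 1219 and 1601 CPM in control and between 2892 and 4261 CPM in SRF mice. Lyz2 was the largest part of this sum in each library. Singly, 9 macrophage markers had a log2 fold change above 0 and 1 below, with a median of 0.79. Of them 5 were higher without overlap, as were 6.71% of all tested genes, and Csf1r (-0.03) and Itgam (0.03) lay near 0. Summed fibroblast and stroma markers overlapped between the groups, at 4504, 5876 and 10460 CPM in control mice 1, 2 and 3 and 6964, 9620 and 11400 CPM in SRF mice 1, 2 and 3. They include Col1a1, Col1a2 and Col3a1, which are also used below as collagen substrates, and Dcn was the largest part of their sum. Taken singly, 9 of these 10 markers had a log2 fold change above 0 and 1 below, with a median of 0.40. A gene was called where its adjusted p (Benjamini-Hochberg) was under 0.05 and its log2 fold change was 0.5 or more in size. By edgeR's quasi-likelihood fit 0 of 13454 genes, 0.0%, were called, and 943, or 7.01%, had an unadjusted p under 0.05. DESeq2 on the same genes called 153, or 1.14%.

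**Figure D1:**
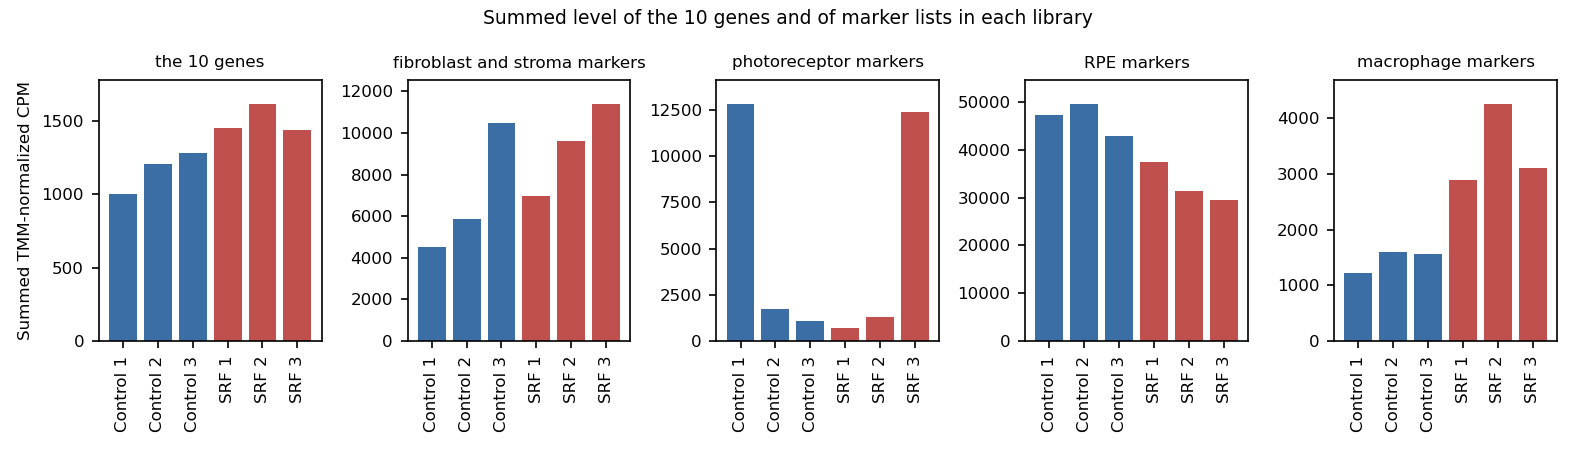
Summed TMM-normalized CPM of the 10 collagen-processing genes and of 4 marker lists in each of the 6 libraries (blue, control; red, SRF), each panel on its own axis from 0. Photoreceptor RNA was high in control mouse 1 and SRF mouse 3, and the 10 genes summed to between 999 and 1280 CPM in control and between 1436 and 1615 CPM in SRF mice. Pcolce, Serpinh1 and Loxl1 are the largest parts of that sum in each library, and taken singly 3 of the 10 genes did not overlap between groups.

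None of the 10 genes was called by edgeR, where 0.0% of all tested genes were, and 0 of them by DESeq2. At an unadjusted p-value under 0.05, Lox, Loxl1 and Pcolce were higher in SRF mice and no member was lower. Over all tested genes 4.16% were higher and 2.85% were lower at that level. The values of the groups did not overlap for these same 3 members, each of them higher in SRF mice, as for 6.71% of all tested genes, against 6.43% that were lower without overlap. They overlapped for the other 7. Of the 10 log2 fold changes 9 were above 0, against 50.3% of all tested genes, and their median was 0.28, against 0.00 over all genes. Without SRF mouse 2, 1 member, Lox, had an unadjusted p-value under 0.05. With mouse numbers fitted as a replicate block 4 members did, against 8.96% of all tested genes: Lox, Loxl1, Loxl3 and Serpinh1, but not Pcolce (unadjusted p = 0.0534 in edgeR). In bulk tissue, fewer cells of a type and less RNA per cell cannot be told apart.

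**Figure D2:**
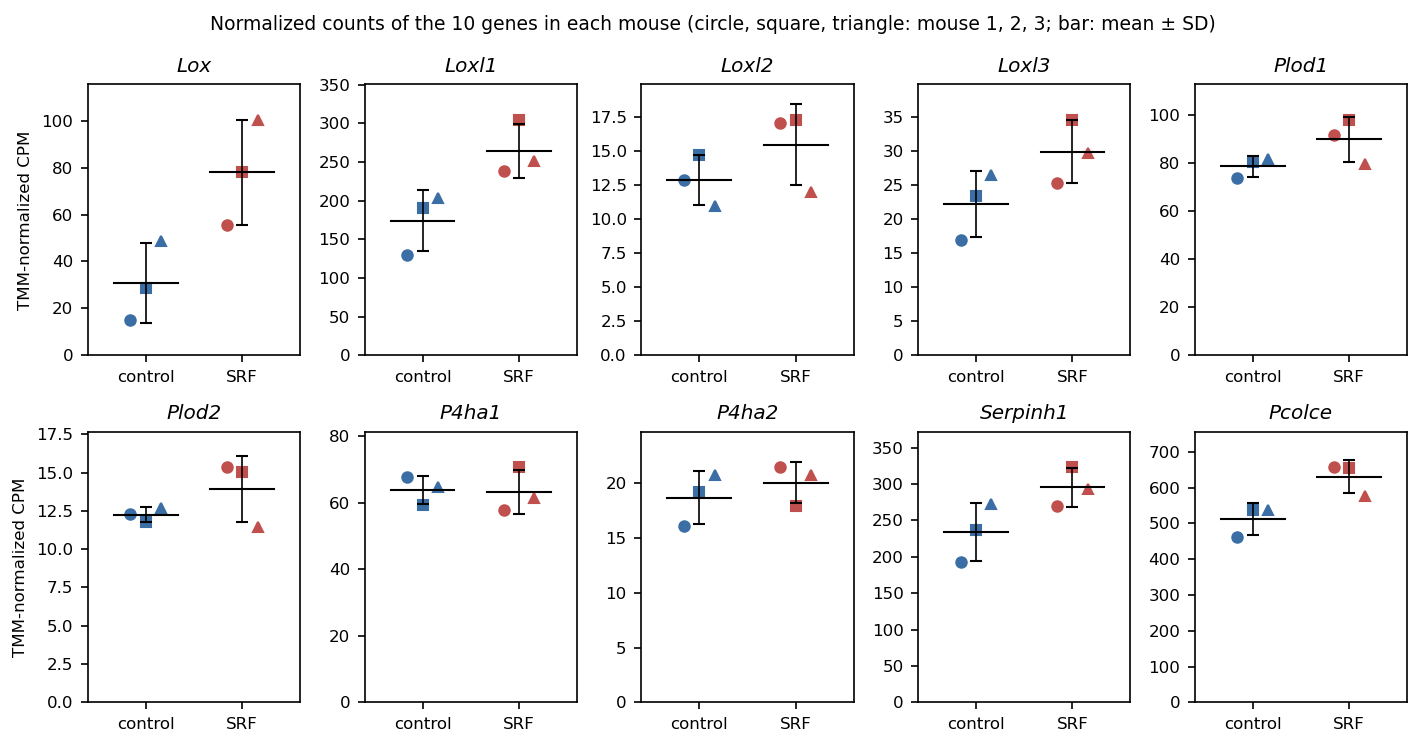
TMM-normalized CPM of each of the 10 genes in each mouse, with the mean and SD of the 3 mice per group as a black bar. SRF mice lay wholly above control mice for Lox, Loxl1 and Pcolce, and the groups overlapped for the other 7 genes.

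Control mouse 1 was the lowest library for 7 of the 10 members, and SRF mouse 2 was the highest for 6. Control mouse 1 was also one of the pair of libraries rich in photoreceptor RNA, and it had the lowest summed level of stroma markers. The part of stromal RNA in these differences was not tested. With the photoreceptor level as a covariate the log2 fold changes of Lox, Loxl1 and Pcolce were 1.36, 0.60 and 0.28 (unadjusted p = 0.011, 0.00806 and 0.0349 in edgeR). In the 4 libraries low in photoreceptor RNA alone they were 0.78, 0.46 and 0.28 (unadjusted p = 0.0138, 0.0131 and 0.0467, adjusted p = 0.184, 0.181 and 0.28 in edgeR). That fit on 4 libraries called 153 genes at the adjusted threshold, and the fit on all 6 libraries called 0. The share of all genes at an unadjusted p-value under 0.05 is not given for the covariate fit or the fit on 4 libraries.

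Lox encodes lysyl oxidase itself, the secreted copper enzyme that cross-links collagen and elastin. Its normalized count was 15.1, 28.5 and 48.9 CPM in control mice 1, 2 and 3 and 55.4, 78.2 and 100.5 CPM in SRF mice 1, 2 and 3. The groups did not overlap, but the highest control mouse was close to the lowest SRF mouse, and the control mice themselves spanned a 3.24-fold range. Control mice averaged 30.9 ± 17.0 CPM (SD, n = 3), and SRF mice averaged 78.0 ± 22.5 CPM (SD, n = 3). Lox had the largest difference of the 10 genes, a 2.52-fold higher level with a log2 fold change of 1.33 (standard error 0.42, 95% interval 0.33 to 2.33). In edgeR p was 0.0162 before and 0.521 after Benjamini-Hochberg adjustment. DESeq2 gave an adjusted p-value of 0.0614 for Lox, the nearest that any member came to the threshold. An exact permutation test on the log2 values gave p = 0.1, two-sided, the smallest that 3 mice against 3 allow. Leaving out single mice moved the log2 fold change of Lox between 1.01 and 1.83. Lox is on the reverse strand of chromosome 18, and its exons overlap an antisense gene on the opposite strand that was not analysed here.

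Loxl1, which cross-links elastin and is needed for elastic fibre upkeep, was the most abundant lysyl oxidase in every library. It stood at 129, 190 and 203 CPM in control mice 1, 2 and 3 and at 239, 304 and 250.7 CPM in SRF mice 1, 2 and 3. Every SRF mouse was above every control mouse. The log2 fold change was 0.60 (standard error 0.20, 95% interval 0.14 to 1.07), a 1.52-fold higher level. In edgeR p was 0.0177 unadjusted and 0.539 adjusted (Benjamini-Hochberg), and DESeq2 gave an adjusted p-value of 0.182. Loxl1 lies on the reverse strand of chromosome 9 (GRCm38, 58287738 to 58313186), where no other annotated gene overlaps it.

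Loxl3 and Loxl2, further amine oxidases of the family, were present at far lower levels. Loxl3 was at 17.0, 23.4 and 26.5 CPM in control mice 1, 2 and 3 and at 25.4, 34.6 and 29.8 CPM in SRF mice 1, 2 and 3. SRF mouse 1 lay below control mouse 3, so the groups overlapped, and the log2 fold change of 0.42 (standard error 0.20) had a 95% interval from -0.05 to 0.90. Loxl3 (chromosome 6, 83034173 to 83052562, GRCm38) shares exonic sequence with Htra2 on the opposite strand, and the use of strand in counting is not given in the sources used here, so its reads may include those of Htra2. Loxl2, known for collagen IV cross-linking and for fibrosis in other organs, was at 12.9, 14.6 and 10.97 CPM in control mice 1, 2 and 3 and at 17.0, 17.3 and 12.0 CPM in SRF mice 1, 2 and 3. SRF mouse 3 was within the control range. The log2 fold change of Loxl2 was 0.27 (standard error 0.21), with a 95% interval from -0.22 to 0.76.

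**Figure D3:**
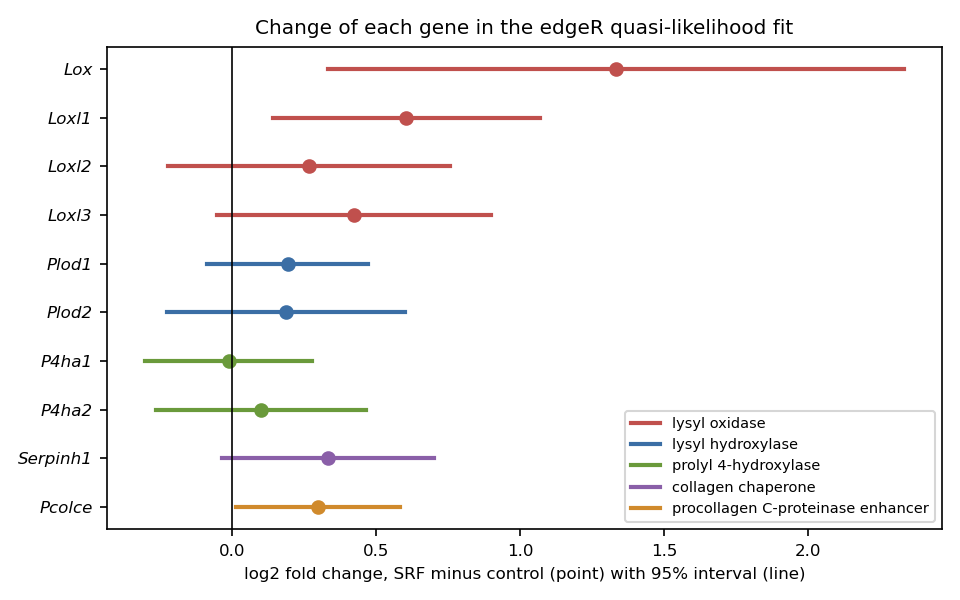
Log2 fold change (SRF minus control) of each of the 10 genes with its 95% interval from the edgeR quasi-likelihood fit, coloured by role. The unadjusted intervals of Lox, Loxl1 and Pcolce lie above 0, and that of P4ha1 is centred near 0, at -0.01.

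The lysyl oxidase family was also compared in FPKM, fragments scaled to transcript length and to the mapped reads of the library, which allow levels of different genes to be set beside each other. Summed over Lox, Loxl1, Loxl2, Loxl3 and Loxl4, the family stood at 50.8, 72.9 and 82.7 FPKM in control mice 1, 2 and 3 and at 97.5, 127.7 and 110.4 FPKM in SRF mice 1, 2 and 3. Loxl1 made up between 69.4% and 77.0% of this sum in each library. The share of Lox was 6.36%, 8.31% and 12.8% in control and 12.6%, 13.5% and 20.1% in SRF mice. It overlapped between the groups by a narrow margin (exact permutation test, two-sided, p = 0.2, where 0.1 is the smallest possible). The share of Loxl3 was between 7.64% and 8.0% in control and between 6.44% and 6.77% in SRF mice, without overlap (exact permutation test, two-sided, p = 0.1). This is a share of a sum that was itself higher in SRF mice, not a lower level of Loxl3. Loxl3 itself averaged 5.33 FPKM in control and 7.42 FPKM in SRF mice. The other family shares, those of Loxl1, Loxl2 and Loxl4, overlapped.

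**Figure D4:**
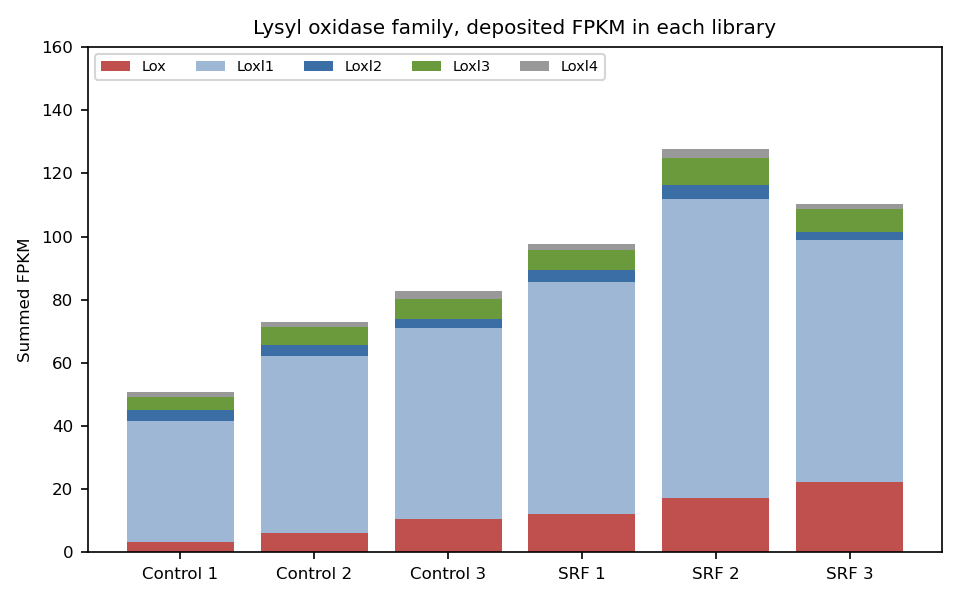
Deposited FPKM of the 5 lysyl oxidase genes, stacked, in each library. Loxl1 is the main part of every bar, and the summed height was between 50.8 and 82.7 FPKM in control and between 97.5 and 127.7 FPKM in SRF mice.

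The lysyl hydroxylases overlapped between groups. Plod1, which hydroxylates lysines of the triple helix, was at 73.8, 80.5 and 81.8 CPM in control mice 1, 2 and 3 and at 91.9, 98.2 and 79.9 CPM in SRF mice 1, 2 and 3. SRF mouse 3 was within the control range. The log2 fold change of Plod1 was 0.19 (standard error 0.12, 95% interval -0.09 to 0.47). Plod2, which hydroxylates telopeptide lysines and is known for the hydroxyallysine cross-links of fibrotic collagen, was at 12.3, 11.8 and 12.7 CPM in control mice 1, 2 and 3 and at 15.4, 15.04 and 11.5 CPM in SRF mice 1, 2 and 3. SRF mouse 3 was the lowest of all libraries. The 95% interval of the log2 fold change of Plod2, 0.19 (standard error 0.17), ran from -0.23 to 0.60. The share of Plod2 among Plod1, Plod2 and Plod3 FPKM was 7.81% ± 0.76 (SD, n = 3) in control and 7.92% ± 0.14 (SD, n = 3) in SRF mice.

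The prolyl 4-hydroxylase subunits had the smallest differences. P4ha1, the main catalytic alpha subunit in most tissues, was at 67.7, 59.3 and 64.7 CPM in control mice 1, 2 and 3 and at 57.9, 70.7 and 61.4 CPM in SRF mice 1, 2 and 3. The lowest and the highest value both came from SRF mice. In log2 the fold change of P4ha1 was -0.01 (standard error 0.12), with a 95% interval from -0.30 to 0.28, and its sign turned with the normalization (0.004 with upper quartile factors). P4ha2, the second alpha subunit, was at 16.1, 19.2 and 20.8 CPM in control mice 1, 2 and 3 and at 21.5, 17.9 and 20.8 CPM in SRF mice 1, 2 and 3, with a log2 fold change of 0.10 (95% interval -0.27 to 0.47). P4ha1 and P4ha2 each stayed within a 1.22-fold range among SRF mice, and P4ha2 within 1.29-fold among control mice.

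Serpinh1, the collagen-specific chaperone HSP47, was at 193, 237 and 273 CPM in control mice 1, 2 and 3 and at 269, 323 and 293 CPM in SRF mice 1, 2 and 3. Only SRF mouse 1 lay within the control range, just under control mouse 3. The log2 fold change was 0.33 (standard error 0.16, 95% interval -0.04 to 0.70, unadjusted p = 0.07 in edgeR). Pcolce, whose product binds procollagen and speeds removal of its C-propeptide, was at 462, 538 and 537 CPM in control mice 1, 2 and 3 and at 657, 655 and 577 CPM in SRF mice 1, 2 and 3. The groups did not overlap, and the spread within each was small. Control mice averaged 512 ± 43.6 CPM (SD, n = 3), and SRF mice averaged 629.9 ± 46.0 CPM (SD, n = 3). The log2 fold change of Pcolce was 0.30 (standard error 0.12, 95% interval 0.01 to 0.58), and edgeR gave an unadjusted p-value of 0.0427 and an adjusted p-value of 0.676 (Benjamini-Hochberg). The unadjusted p in edgeR was 0.0537 with RLE normalization, 0.0271 when SRF mouse 3 was left out and between 0.0617 and 0.128 when any other mouse was. Pcolce (reverse strand of chromosome 5, 137605103 to 137613784, GRCm38) shares exonic sequence with Fbxo24 on the same strand, so its counts may include some reads of that gene.

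Promoter windows, 250 bases before to 50 after the transcription start in RefSeq on GRCm38.p6, were matched for 5 of the 10 genes: Plod1, P4ha1, P4ha2, Serpinh1 and Pcolce. For Pcolce and P4ha2 the window lies inside the gene's span in GENCODE M21, downstream of its outer start. The windows of Pcolce, Serpinh1 and P4ha1 are shown 5′ to 3′ on the gene's strand, Pcolce because its groups did not overlap, Serpinh1 as the chaperone beside it in abundance and P4ha1 because its log2 fold change was nearest to 0. Capitals mark matches on either strand to ACGTG, the core of the hypoxia response element, to the GC box GGGCGG and to TATAAA, and to CCAAT and to the heat shock pairs GAANNTTC and TTCNNGAA, which had no match in these windows.
Pcolce, chr5:137611355-137611654, reverse strand: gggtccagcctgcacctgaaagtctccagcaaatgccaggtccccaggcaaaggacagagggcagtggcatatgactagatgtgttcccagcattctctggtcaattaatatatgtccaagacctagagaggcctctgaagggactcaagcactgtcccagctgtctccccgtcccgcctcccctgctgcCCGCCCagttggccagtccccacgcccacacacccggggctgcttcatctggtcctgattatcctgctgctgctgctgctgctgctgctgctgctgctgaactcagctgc
Serpinh1, chr7:99353190-99353489, reverse strand: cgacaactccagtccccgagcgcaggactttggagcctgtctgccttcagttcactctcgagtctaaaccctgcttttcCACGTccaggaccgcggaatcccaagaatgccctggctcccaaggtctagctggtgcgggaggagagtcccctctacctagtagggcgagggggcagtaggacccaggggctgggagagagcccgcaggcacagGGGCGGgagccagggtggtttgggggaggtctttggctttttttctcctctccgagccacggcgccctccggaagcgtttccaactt
P4ha1, chr10:59323046-59323345, forward strand: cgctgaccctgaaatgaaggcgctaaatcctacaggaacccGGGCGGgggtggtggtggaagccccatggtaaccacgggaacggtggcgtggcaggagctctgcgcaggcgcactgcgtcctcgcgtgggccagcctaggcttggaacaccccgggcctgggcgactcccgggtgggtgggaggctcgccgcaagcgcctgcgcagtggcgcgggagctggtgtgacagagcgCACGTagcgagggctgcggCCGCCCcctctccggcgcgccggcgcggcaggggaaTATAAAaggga
ACGTG was found in 1 place each in P4ha1, at position -16 from the start, and in Serpinh1, at -171. P4ha2 held it in 2 places, and Pcolce and Plod1 in none. It occurs in 19.6% of 32851 promoter windows of this length and in 24.4% of the 13550 windows of tested genes. GGGCGG, which all 5 windows hold, occurs in 35.7% of all windows and in 60.5% of those of tested genes. TATAAA, found in Plod1 and P4ha1, occurs in 13.6% and 7.54%, and CCAAT, absent from the 5 windows, in 37.4% and 37.0%. GAANNTTC, found in Plod1, occurs in 7.86% and 5.73%, and TTCNNGAA, found in P4ha2, in 8.52% and 6.98%. A match to so short a motif describes the letters of the window only. P4ha1, P4ha2, Plod2, Lox and Loxl2 are known as genes that hypoxia can induce. Of 19 further genes on a list of known hypoxia-inducible genes, 18 were tested. At an unadjusted p-value under 0.05 in edgeR 0 of them were higher and 0 lower, against 4.16% and 2.85% of all tested genes. The count was 1 without control mouse 1, SRF mouse 1 or SRF mouse 3 and with the photoreceptor covariate, and 2 in the 4 libraries low in photoreceptor RNA. The share of all tested genes at that level is not given for these settings. With the adjusted threshold 0 of the hypoxia-inducible genes were called by edgeR and 0 by DESeq2, and their median log2 fold change was -0.03.

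Per length, the 10 genes differed in abundance by about 2 orders of magnitude. Pcolce was highest, with a mean of 359 FPKM over the 6 libraries, followed by Serpinh1 (123 FPKM), Loxl1 (66.6 FPKM), Plod1 (27.3 FPKM) and P4ha1 (20.1 FPKM). Each of Pcolce, Serpinh1, Loxl1 and Plod1 was above the next gene in 6 of 6 libraries. Below them P4ha1 was above Lox in 5 libraries of 6, Lox above P4ha2 in 4 and P4ha2 above Loxl3 in 5. Loxl3 was above Plod2 in 6 of 6. Plod2 (3.58 FPKM) and Loxl2 (3.44 FPKM) did not differ beyond their spread, with Plod2 the higher in 3 libraries. The place of Lox in this order differed between libraries, as its level ran from 3.23 FPKM in control mouse 1 to 22.2 FPKM in SRF mouse 3.

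The enzymes were then set against their substrate. The summed FPKM of the fibrillar collagen chains Col1a1, Col1a2 and Col3a1 was 288, 396 and 582 in control mice 1, 2 and 3 and 506, 799 and 594 in SRF mice 1, 2 and 3, with overlap between the groups. Lox per 100 FPKM of these collagens was 1.12, 1.53 and 1.82 FPKM in control mice and 2.42, 2.15 and 3.73 FPKM in SRF mice 1, 2 and 3. All 3 SRF mice were above all 3 control mice, also with Col1a1 alone as the denominator and with counts in place of FPKM (exact permutation test, two-sided, p = 0.1). The mean log2 difference of this ratio was 0.88. The other 9 genes overlapped between groups in this ratio. For Loxl1 it was 12.7 ± 1.98 FPKM (SD, n = 3) in control and 13.1 ± 1.33 FPKM (SD, n = 3) in SRF mice, a mean log2 difference of 0.06, beside a log2 fold change of 0.60 for Loxl1 itself. For P4ha1 the ratio was 5.11 ± 1.96 FPKM (SD, n = 3) in control and 3.29 ± 0.41 FPKM (SD, n = 3) in SRF mice (mean log2 difference -0.57, exact permutation test, two-sided, p = 0.2), and for P4ha2 the mean log2 difference was -0.47. These stand beside log2 fold changes of -0.01 for P4ha1 itself and 0.10 for P4ha2 itself. Over all tested genes, the same ratio was higher without overlap for 0.364% and lower without overlap for 13.3%. These ratios depended on single mice. Without control mouse 3, which had the most collagen RNA of the control mice, Lox was still higher without overlap and 7 members were lower without overlap, as were 66.4% of all tested genes (0.439% were higher). Without SRF mouse 1, Lox was higher and 4 members, Plod1, Plod2, P4ha1 and P4ha2, were lower, as were 41.5% of all tested genes (0.387% were higher).

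**Figure D5:**
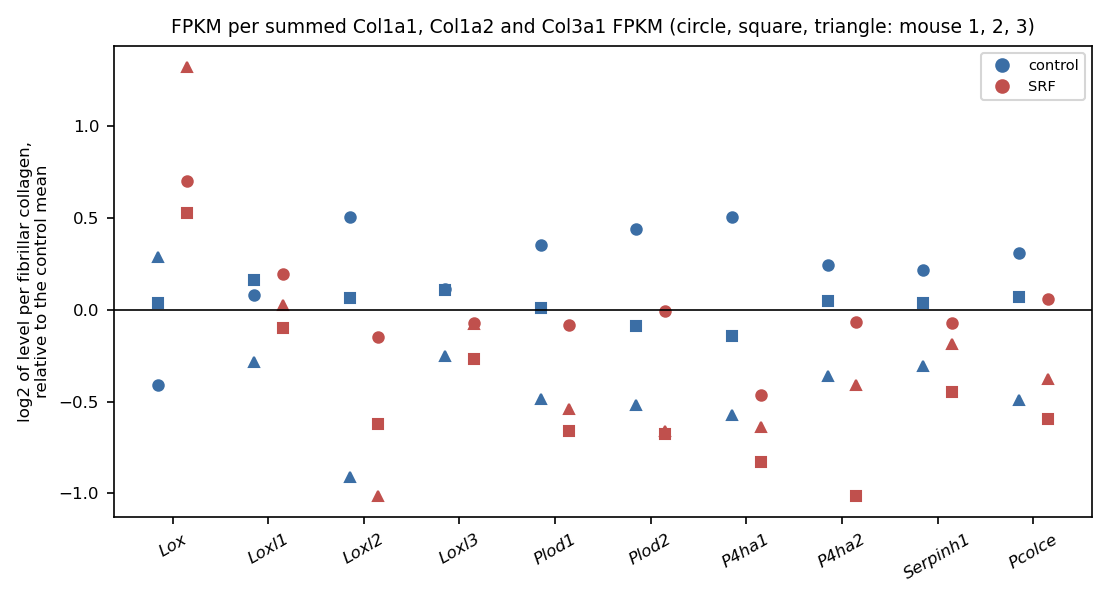
FPKM of each gene per summed FPKM of Col1a1, Col1a2 and Col3a1 in each mouse, on a log2 scale relative to the control mean (blue, control; red, SRF). Lox is the gene for which all 3 SRF mice lie above all 3 control mice, and P4ha1 has a mean log2 difference of -0.57 with overlapping groups.

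The substrates and the rest of the pathway were described from lists. Of 16 collagen and elastic fibre genes, all tested, 16 had log2 fold changes above 0, against 50.3% of all tested genes. Their median was 0.54, against 0.00 over all genes. At an unadjusted p-value under 0.05 in edgeR 4 were higher and 0 lower, against 4.16% and 2.85% of all tested genes. At the adjusted threshold 0 passed in edgeR or DESeq2. The 4 were Col3a1, Col5a2, Col24a1 and Eln. The count of 4 was 0 without SRF mouse 2 and 10 without SRF mouse 3. Without control mouse 1, control mouse 2 or SRF mouse 1 it was 2, in the 4 libraries low in photoreceptor RNA 10, and in a fit with a replicate block 7. Of all tested genes 8.96% were at that level with the replicate block, and their share in the fits with mice left out is not given. Col3a1, the collagen III chain of early scar, was at 253, 319 and 280 CPM in control mice 1, 2 and 3 and at 413, 577 and 341 CPM in SRF mice 1, 2 and 3, a log2 fold change of 0.64 (standard error 0.21). Col1a1 was at 577, 886 and 1437 CPM in control mice 1, 2 and 3 and at 1053, 1822 and 1346 CPM in SRF mice 1, 2 and 3. The collagen I chains varied as much within as between groups, and the log2 fold change of Col1a1, 0.54, had a 95% interval from -0.28 to 1.37. That of Col1a2 was 0.54, with a 95% interval from -0.27 to 1.35. Eln, elastin, was at 29.6, 42.3 and 26.9 CPM in control mice 1, 2 and 3 and at 68.0, 77.2 and 33.9 CPM in SRF mice 1, 2 and 3, so that SRF mouse 3 was within the control range.

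Of 28 other genes of collagen modification, secretion and cleavage, 26 were tested. Of these 23 had log2 fold changes above 0, against 50.3% of all tested genes, and their median was 0.19. Adamts14 had too few counts and Tll2 was not analysed here. At an unadjusted p-value under 0.05 in edgeR 3 were higher and 0 lower, against 4.16% and 2.85% of all tested genes. At the adjusted threshold 0 passed in edgeR or DESeq2. The count of 3 was 0 without SRF mouse 2 and 7 without control mouse 3. Bmp1, the procollagen C-proteinase whose action Pcolce enhances and which also activates the lysyl oxidase proenzyme, was at 28.3, 32.3 and 24.4 CPM in control mice 1, 2 and 3 and at 44.4, 51.3 and 33.2 CPM in SRF mice 1, 2 and 3. Its groups did not overlap, with a difference of 0.60 in log2 (standard error 0.19, edgeR adjusted p = 0.529). P3h3, a prolyl 3-hydroxylase family member, was at 37.1, 44.7 and 51.0 CPM in control mice 1, 2 and 3 and at 72.6, 67.6 and 53.3 CPM in SRF mice 1, 2 and 3, with a log2 fold change of 0.54 (standard error 0.17). Creb3l1, a transcription factor of the secretory pathway that drives collagen I expression in bone, had a log2 fold change of 0.68 (standard error 0.25), with overlap. Of 14 TGF-beta target genes 13 were tested. Their log2 fold changes were above 0 for 8 and below 0 for 5 (Skil, Acta2, Tgfbi, Col8a1 and Tagln), with a median of 0.15, and the groups overlapped for all 13. At an unadjusted p-value under 0.05 in edgeR 3 of the 13, Fn1, Tnc and Pmepa1, were higher and 0 were lower, beside the same shares of 4.16% and 2.85% of all tested genes. The count of 3 was 0 without SRF mouse 2, and 1 without control mouse 1 or control mouse 2. It was 5 with the replicate block, and 0 were called at the adjusted threshold in edgeR or DESeq2.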

How the data were processed

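RNA-seq of RPE-choroid from 3 control and 3 SRF mice was analysed, with groups and mouse numbers taken from the sample titles. The authors filtered reads with FASTP, counted reads per gene with StringTie and deposited whole-number counts without normalization. They also deposited FPKM values per gene and mouse. The aligner, genome build and use of strand are not given in the sources used here. Symbols and positions came from GENCODE M21 (GRCm38), in which 15659 of 15663 identifiers were found.

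Counts were tested with edgeR 4.0.16 in R 4.3.3 (TMM, estimateDisp, glmQLFit and glmQLFTest at their defaults, group as the only term). The test covered the 13454 genes whose count exceeded 50 in 2 or more libraries, with Benjamini-Hochberg adjustment over all of them. Calls required adjusted p below 0.05 together with an absolute log2 fold change of 0.5 or more. Standard errors and 95% intervals are from that fit, and unadjusted where printed. The median standard error was 0.19 on the log2 scale. A count of 3 corresponds to between 0.125 and 0.223 CPM, and covers counting error only. Whether the mice shared a litter or a preparation is not stated, so p-values measure the spread between these libraries.

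Genes of the other lists were named by the smallest unadjusted p, up to 5 per list, with Col1a1, Col1a2 and Col3a1 always named. The members and lists were chosen with earlier results of these data known. Other settings tried were limma 3.58.1 on log2(FPKM + 0.1) or log2(FPKM + 1), DESeq2 1.42.0, other normalizations and filters, the newer quasi-likelihood form, each mouse left out, a photoreceptor covariate and a replicate block. The fits were tested on simulated counts first. A fit on the 4 libraries low in photoreceptor RNA was added after the data had been seen.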

Additional observations from a re-analysis of the deposited data

How the results depend on the processing

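No member passed the adjusted threshold in edgeR, DESeq2 or limma under any of the 18 other settings, in which the lowest adjusted p-value for a member was 0.0614 for Lox (DESeq2, Benjamini-Hochberg adjustment). Lox had an unadjusted p-value under 0.05 in each of them, though without control mouse 2 it rounded to 0.05 in edgeR. Loxl1 did so in all but one, without SRF mouse 2 (0.0681 in edgeR). The number of members at an unadjusted p-value under 0.05 was between 1 and 4 with a mouse left out, and 4 with the replicate block. The share of all tested genes at that level is not given for the fits with a mouse left out. The number whose groups did not overlap was 5 with library totals only, and 3 to 6 when single mice were left out, as fewer values must separate. The matching shares of all tested genes are not given for these settings, so these counts cannot be read against a background. The number of members with separate levels per collagen was between 1 and 8 with a mouse left out, with 1 of them, Lox, higher in SRF mice each time and up to 7 lower. Over all genes, the number called was 153 with DESeq2 and 153 in the 4 libraries low in photoreceptor RNA, 2 with limma on either FPKM scale and 0 to 5 when single mice were left out (5 without control mouse 1). It was 1 with the newer quasi-likelihood form (legacy = FALSE), upper quartile normalization, library totals only, no filter, filterByExpr or the photoreceptor covariate. The cause of these shifts was not tested.

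The log2 fold change of P4ha1 lay near 0 and turned to 0.004 with upper quartile normalization, 0.038 with library totals only, 0.043 and 0.042 with limma on log2(FPKM + 0.1) and log2(FPKM + 1), and 0.049 in the 4 libraries low in photoreceptor RNA. With a mouse left out it ran from -0.098 to 0.047. That of P4ha2 turned to -0.026 in the same 4 libraries. No other member changed direction. Same-numbered mice are different animals. Deviations of same-numbered libraries correlated at -0.46, 0.51 and -0.26 across genes for mice 1, 2 and 3. These values differ in sign and cannot decide whether same-numbered mice shared a preparation. With the replicate block the log2 fold change of Lox was 1.45 and its adjusted p-value 0.345 in edgeR, and it changed no call. Depth and 3 mice per group limit what can be seen, with a median standard error of 0.19.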

Other observations

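The mean standardized log2 level of the 10 genes was -1.11, -0.42 and -0.08 in control mice 1, 2 and 3 and 0.50, 1.01 and 0.11 in SRF mice 1, 2 and 3. Of the other 13444 tested genes, those that followed this mean most closely over the 6 libraries were Naglu, a lysosomal enzyme of heparan sulfate breakdown, the Notch target Hey1, the laminin chain Lamc1, the transcription factor Runx1 and the cell cycle kinase Cdk2. Their Pearson correlations were between 0.994 and 0.999 over 6 libraries. They are the highest of many and are given as a description. Their log2 fold changes ran from 0.23 for Naglu to 0.66 for Runx1.

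Skeletal muscle markers, from tissue outside the choroid, summed to 1080, 1785 and 1116 CPM in control mice 1, 2 and 3 and to 2546, 2126 and 695 CPM in SRF mice 1, 2 and 3. The lowest sum was in SRF mouse 3, the SRF mouse in which Loxl2, Plod1, Plod2, Pcolce, Eln and Col3a1 were also lowest, a set named after its values were seen. Other members differed. Lox was at its highest in SRF mouse 3, at 100.5 CPM, and Loxl1, Loxl3, P4ha1, P4ha2 and Serpinh1 were lowest in another SRF mouse. Smooth muscle and pericyte markers had a median log2 fold change of 0.01 over 8 genes, endothelial markers of 0.02 over 8, melanocyte markers of 0.10 over 5 and skeletal muscle markers of 0.44 over 6. For fibroblast and stroma markers, which include Col1a1, Col1a2 and Col3a1, the median was 0.40 over 10, beside 0.28 for the 10 members. The part of these tissues in the levels of the collagen-processing genes was not tested.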
